A study of Mus musculus with 4 samples.

Results

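The 40 genes described here serve the 3 main responses to misfolded protein and amino acid stress in the cell. They are a list of names, drawn up with earlier results of these data known, and every probe set that the platform annotation assigned to a single one of them was read. Of the 40 genes, 39 had such a probe set, 94 probe sets in all, out of 18193 genes with a value on the arrays. Hsf1, the master factor of the heat shock response, had no such probe set and so has no value here. All 39 passed the level filter (mean log2 value at or above 5.28), as did 10916 genes in the whole series. The values come from 4 Affymetrix arrays of fibroblast RNA from C57BL/6 mice, 1 array per group. In the in vitro pair, mouse fibroblasts received an adenovirus carrying Cre, labelled as deleting RBP-Jk (gene Rbpj, the DNA-binding partner of Notch receptors), or a GFP adenovirus as control. In the in vivo pair, the deleted sample is labelled ColI Cre x RBP loxp-loxp and its control RBP loxp-loxp, so both in vivo samples carry the floxed gene and a collagen I promoter, by its label, drives the recombinase in the deleted one. The sources used here give no age, number of animals or passage. With 1 array per group, differences within a pair have no replicate check.

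Secretory cells such as fibroblasts, which export large amounts of collagen, fold proteins in the endoplasmic reticulum (ER). When folding falls behind, the sensors Ire1 (gene Ern1), Atf6 and Perk start the unfolded protein response, which raises ER chaperones through Xbp1 and Atf6. Perk and other kinases also phosphorylate eIF2, which lowers general translation and favours that of Atf4, the factor of the integrated stress response. The heat shock response is the cytosolic counterpart, in which heat shock factor induces Hsp70, Hsp90, small heat shock proteins and their cochaperones. The genes were accordingly read as an ER stress arm of 19 genes, an ATF4 arm of 10 and a heat shock arm of 11, of which 10 were measured.

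Promoter sequences are shown first because the arms are known for separate response elements. The genes were listed as known members of these responses, so the choice is not independent of the elements. The shares below describe the list and are not a test. RefSeq promoter windows (build GRCm38.p6, from 250 bases before to 50 bases after the annotated start) were found for 34 of the 40 genes. The ER stress element, searched on both strands as CCAAT, 9 bases of any kind, then CCACG, was present in the windows of 7 of 16 genes of the ER stress arm, and in 0 of 10 genes of the ATF4 arm and 0 of 8 of the heat shock arm. Among all 32851 windows 0.119% hold it. The 7 genes were Hspa5, Hsp90b1, Calr, Canx, Pdia6, Dnajc3 and Creld2. The bases before the start of Hspa5, the gene of the main ER chaperone BiP (chr2:34771840-34772089, plus strand), show the element in capitals, with its first base at -65 from the start.

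Hspa5: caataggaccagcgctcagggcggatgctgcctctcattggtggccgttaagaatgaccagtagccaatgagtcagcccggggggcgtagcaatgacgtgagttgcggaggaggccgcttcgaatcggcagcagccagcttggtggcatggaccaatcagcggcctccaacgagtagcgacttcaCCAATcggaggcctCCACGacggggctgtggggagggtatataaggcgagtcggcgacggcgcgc

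The same element is shown with 10 flanking bases for 3 other chaperone genes and for Herpud1, which holds the related element II (ATTGG, 1 base, CCACG; 0.0365% of all windows). Each is read on the strand of its gene, capitals mark the fixed bases, and the elements of Calr and Hsp90b1 lie in reverse. The Hsp90b1 window also has a forward copy further upstream.
Hsp90b1, chr10:86705523-86705561, minus strand: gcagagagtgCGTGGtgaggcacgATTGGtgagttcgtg
Calr, chr8:84847065-84847103, minus strand: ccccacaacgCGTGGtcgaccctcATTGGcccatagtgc
Canx, chr11:50325790-50325828, minus strand: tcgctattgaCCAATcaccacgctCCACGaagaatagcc
Herpud1, chr8:94386367-94386397, plus strand: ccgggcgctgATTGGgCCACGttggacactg

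The C/EBP-ATF response element, at which Atf4 binds with C/EBP proteins, was searched as TGATGNAA on both strands and found in 3 of 10 genes of the ATF4 arm (Asns, Chac1 and Trib3) and in Herpud1, against 3.97% of all windows. A heat shock element of 3 units (GAA and TTC in turn, 2 bases apart, both orders being the same motif on opposite strands) was found for Hspd1, Hspe1 and Hsph1 of 8 genes of the heat shock arm, against 0.603% of all windows. Hspd1 and Hspe1 lie head to head and their windows hold the same site, in which 2 matches overlap. A match describes these letters only, and a window without one says nothing about the factor.
Asns, chr6:7693215-7693242, minus strand: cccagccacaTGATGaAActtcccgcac
Chac1, chr2:119351039-119351066, plus strand: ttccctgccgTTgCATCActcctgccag
Hspe1, chr1:55088054-55088086, plus strand: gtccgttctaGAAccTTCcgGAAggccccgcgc

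Some properties of the arrays bear on all results below. Fibroblast markers were present, with 10 of 10 at or above the level cutoff on each array. The deleted in vivo array also carried keratinocyte and skeletal muscle transcripts. The summed linear level of 11 keratinocyte markers was 6251 there, 456 in its control, and 646 and 1122 in vitro (deleted, control). Of the 11, 7 were at least 2-fold higher in vivo, beside 2.81% of all genes analysed. Cdh1 is 1 of these 7 but lay under the cutoff on all 4 arrays, as did Krt1. For 11 muscle markers, 9 of them at least 2-fold higher in vivo, the sums were 3981 and 848 in vivo and 441 and 521 in vitro, with Myod1 under the cutoff throughout. The part of those cells in the in vivo values was not tested, and in bulk samples fewer cells of a type and less RNA per cell cannot be told apart. The log2 excess of 3' over 5' control signal for Actb was 1.11 in the control culture and 0.40 in the deleted one (Gapdh 1.003 and 0.02), while in vivo the 4 values lay between 0.13 and 0.41. Rbpj itself differed by -1.34, -1.11 and 0.10 over its 3 probe sets in vitro and by -0.83, -0.10 and -0.49 in vivo.

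Across all 39 genes the deletion went with small differences in either system. The median log2 difference (deleted minus control) was -0.07 in vitro and 0.04 in vivo, beside -0.06 and -0.03 over all genes analysed. In vitro no member (0) was 2-fold higher, as 0.788% of all genes were, and 1 was 2-fold lower, beside 1.15%. In vivo 0 members were higher by that much (2.81% of all genes) and 2 were lower (3.81%). These 3 differences belong to 2 genes of the ATF4 arm, Ccpg1 and Sesn3. By arm, the medians were 0.05, -0.19 and -0.12 in vitro and 0.01, -0.07 and 0.18 in vivo for the ER stress, ATF4 and heat shock arms. In vitro medians depended on the probe set that stands for a gene, as the median of all its probe sets gave 0.26, -0.07 and 0.11.

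**Figure D1:**
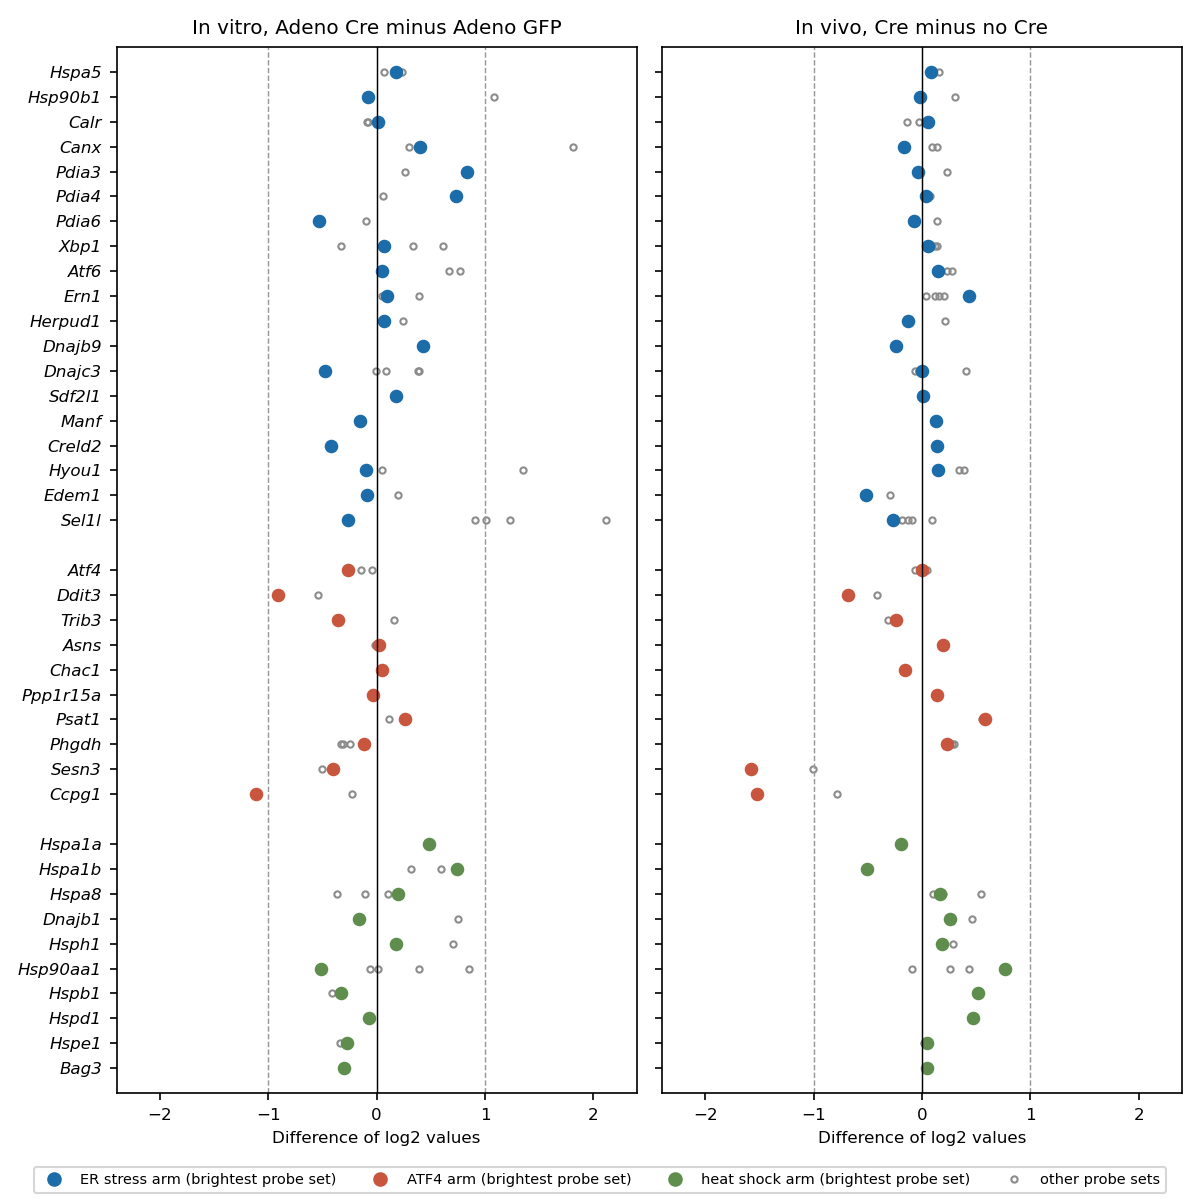
Deleted minus control log2 value for each of the 39 genes, in vitro (left) and in vivo (right). Filled points are the brightest probe set of a gene, open points its other probe sets, and dashed lines mark 2-fold; in vivo the ER stress arm stays between -0.52 and 0.44, while in vitro open points reach 2.12.

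A deletion effect common to both systems was tested with limma, with system as a covariate and the 2 pairs as the only replicates (1 residual degree of freedom). At an adjusted p of 0.05 it called 0 of 39 members, and 0 of 10916 genes (0%). At an unadjusted p of 0.05 it marked 759 genes (6.95%), among them 3 members, all lower and all of the ATF4 arm: Ccpg1, Ddit3 and Sesn3. Genes lower at that level made up 4.97% of all genes and those higher 1.99%. The smallest adjusted p among members was 0.68, so none of these differences passed the test.

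Ccpg1 encodes a receptor for the removal of ER by autophagy that is induced under ER stress. Its log2 value was 7.24 in the deleted and 8.36 in the control culture, and 5.28 and 6.80 in vivo (deleted, control). Both deleted arrays thus lay below their own control, by 2.16-fold in vitro and 2.87-fold in vivo, although the deleted in vitro value lay above the in vivo control. The deleted in vivo value lay just under the level cutoff, so the in vivo fold is not exact. The shared difference was -1.31 ± 0.22 (SE; limma, adjusted p = 0.68). A second, dimmer probe set differed by -0.23 and -0.78, so neither difference reached 2-fold there.

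Ddit3 encodes CHOP, the transcription factor that drives cell death in prolonged ER stress. It read 9.49 (deleted) and 10.40 (control) in vitro and 9.64 and 10.33 in vivo. Both deleted arrays lay below both controls, by 1.88-fold in vitro and 1.61-fold in vivo within the pairs, and its second probe set differed by -0.54 and -0.42. The shared difference was -0.80 ± 0.21 (SE; limma, adjusted p = 0.68). At least 1.5-fold lower in both systems were 2 members, Ddit3 and Ccpg1, as were 1.79% of all genes.

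Sesn3 encodes a sestrin, a stress-induced inhibitor of mTORC1. Its values were 7.84 and 8.24 in vitro and 6.76 and 8.34 in vivo (deleted, control). The 2 controls stood close together and the deleted in vivo array was the low one, 2.99-fold below its control. The second probe set differed by -0.51 in vitro and -1.01 in vivo. That deleted array is the one with the keratinocyte and muscle transcripts, whose part in the Sesn3 values was not tested.

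Atf4 itself, whose activity is set mainly by translation, read 11.70 and 11.96 in vitro and 11.97 and 11.97 in vivo (deleted, control). Its differences (-0.26 and 0.00) were thus smaller than those of Ddit3. Trib3, a pseudokinase that restrains ATF4 signalling, differed by -0.35 and -0.24, or 0.16 and -0.31 on its other probe set. Chac1, a glutathione-degrading enzyme, differed by 0.05 and -0.15, and Ppp1r15a, the eIF2 phosphatase subunit GADD34, by -0.03 and 0.14. Each of these 3 genes differed by less than Ddit3 in both systems.

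The amino acid synthesis genes of the arm leaned the other way in vivo. Psat1, the aminotransferase of serine synthesis, read 11.09 and 10.83 in vitro and 11.79 and 11.20 in vivo (deleted, control), and its second probe set differed by 0.12 and 0.56. Phgdh, the first enzyme of that route, differed by -0.12 in vitro and 0.23 in vivo. Its other probe sets were at -0.31, -0.25 and -0.33 in vitro and at 0.28, 0.30 and 0.23 in vivo. Asns, asparagine synthetase, differed by 0.02 and 0.20 (second probe set -0.02 and 0.18). All 3 were higher in the deleted in vivo array, as were 5065 of 10916 genes in all, and none by 2-fold. The upper quartile of all genes was 0.21 in vivo, close to the Asns and Phgdh values. That deleted array is the one with the keratinocyte and muscle transcripts, whose part in these values was not tested.

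**Figure D2:**
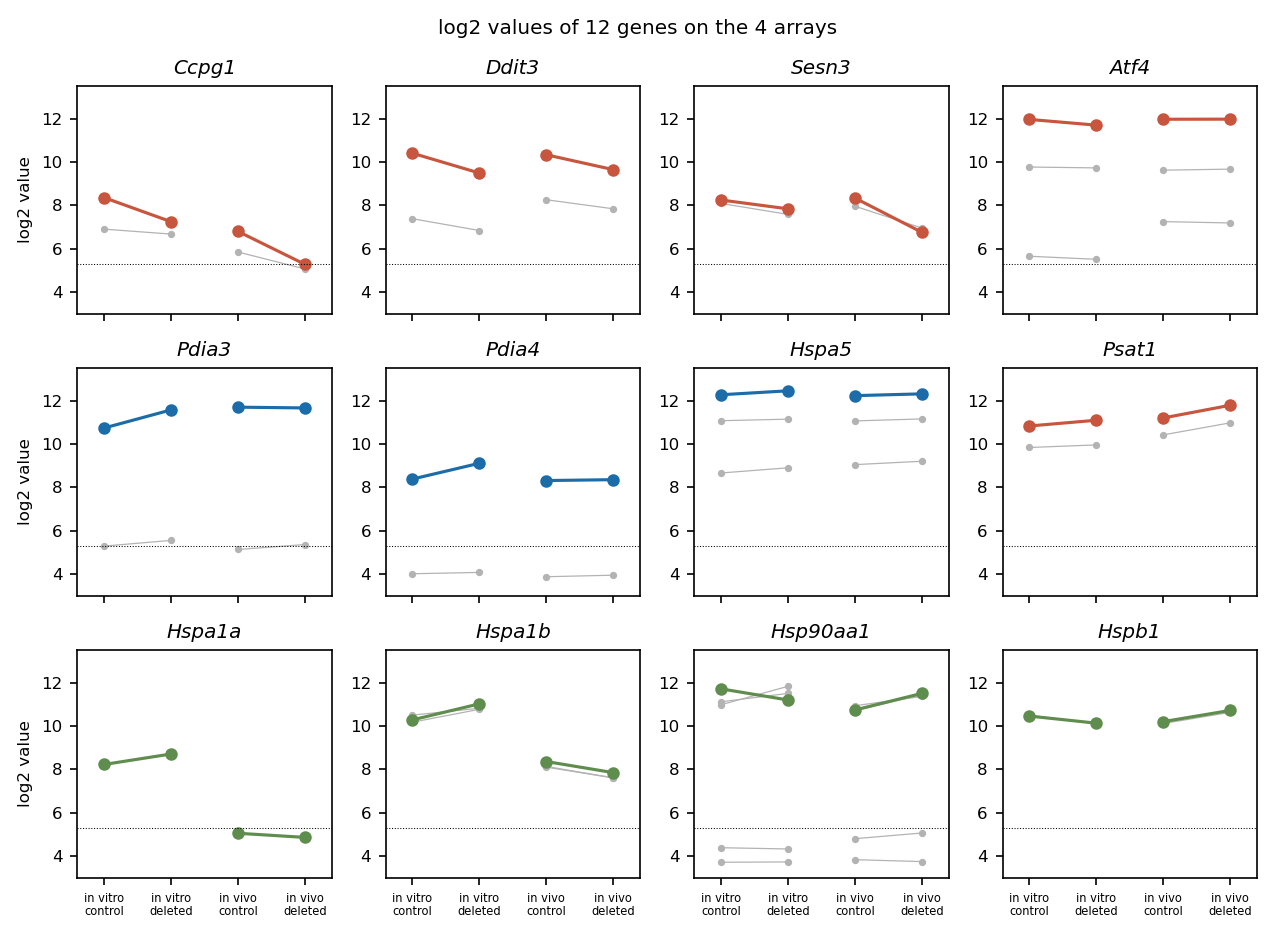
log2 values of 12 genes on the 4 arrays, with lines joining the control and the deleted array of a system. Coloured points are the brightest probe set (red ATF4 arm, blue ER stress arm, green heat shock arm), grey points the others, and the dotted line is the level cutoff of 5.28; Ccpg1, Ddit3 and Sesn3 slope down in each pair, while Hspa1a and Hspa1b differ by system.

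In the ER stress arm, Hspa5 differed little on each of its 3 probe sets. It read 12.45 and 12.27 in vitro and 12.31 and 12.23 in vivo (deleted, control), and its other probe sets differed by 0.07 and 0.24 in vitro and 0.09 and 0.16 in vivo. Calr, the lectin chaperone calreticulin, differed by 0.01 and 0.05, and Hsp90b1, the ER Hsp90 GRP94, by -0.08 and -0.02 on the brightest probe set and 1.09 and 0.31 on the other. Canx, the membrane-bound lectin chaperone calnexin, differed by 0.40 and -0.17, with a dimmer probe set at 1.81 and 0.09.

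The disulfide isomerases, which form and rearrange disulfide bonds, had their larger differences in vitro. Pdia3 read 11.57 and 10.74 in vitro (deleted, control), 1.78-fold higher with the deletion, and 11.66 and 11.70 in vivo. Pdia4 read 9.11 and 8.38 in vitro, 1.66-fold higher, and 8.36 and 8.32 in vivo. Pdia6 went the other way, at -0.53 in vitro and -0.08 in vivo. For Pdia3 the in vitro control stood below the other 3 arrays, and for Pdia4 the in vitro deleted array stood above them. These were the only members of the arm at least 1.5-fold higher in vitro, 2 of 19 beside 5.10% of all genes, and 0 were 1.5-fold lower (9.66%). Dimmer probe sets of Pdia3 and Pdia4, near or below the cutoff, differed by 0.26 and 0.06 in vitro.

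The sensors and factors depended on the probe set in vitro. Xbp1, whose mRNA is spliced by Ire1, differed by 0.07 and 0.05 on the brightest probe set, and by 0.61, 0.33 and -0.33 in vitro on the others. Atf6 differed by 0.05 and 0.14, with 0.67 and 0.77 in vitro on its other 2 probe sets. Ern1 differed by 0.10 in vitro and 0.44 in vivo, or by 0.39 and 0.12 on its next brightest probe set. Spliced and unspliced Xbp1 were not told apart here. On the brightest probe set, the cochaperones and secreted factors ranged from -0.48 (Dnajc3) to 0.43 (Dnajb9) in vitro. In vivo they ranged from -0.24 (Dnajb9) to 0.15 (Hyou1). Sdf2l1 (0.17 and 0.01), Manf (-0.15 and 0.13) and Creld2 (-0.43 and 0.13) lay between. Other Dnajc3 probe sets above the cutoff were at -0.01, 0.39 and 0.08 in vitro and at -0.06, 0.40 and -0.02 in vivo. Other Hyou1 probe sets were at 0.05 and 1.35 in vitro and at 0.38 and 0.34 in vivo. Dnajb9 and Dnajc3 are J-domain partners of BiP, Hyou1 is its nucleotide exchange factor, and Manf is a secreted ER protein. The ER degradation genes Herpud1 (-0.13), Edem1 (-0.52) and Sel1l (-0.26) were lower in vivo on the brightest probe set (5847 of 10916 genes in all were), none by 1.5-fold, and the other Herpud1 probe set was at 0.21. In vivo 0 of 19 genes of the arm were past 1.5-fold, where 8.02% of all genes were higher and 11.2% lower by that much.

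The dimmer probe sets of the arm differed more in vitro. Of the 44 probe sets of the arm with a mean above the cutoff, 6 were at least 2-fold higher in the deleted culture (3.87% of all such probe sets were) and 0 were 2-fold lower (1.16%), while in vivo none of them passed 2-fold in either direction (2.86% and 3.34% of all). The 6 are not separate genes, since Sel1l gave those at 1.01, 2.12 and 1.23, and Canx, Hsp90b1 and Hyou1 gave the others. Sel1l, the adaptor of the Hrd1 ubiquitin ligase, had 5 probe sets whose in vitro differences ran from -0.26 for the brightest to 2.12, and in vivo from -0.26 to 0.10. The Canx probe set at 1.81 had its in vitro control at 8.19, beside 9.12 and 9.03 in vivo (deleted, control). A second Hsp90b1 probe set read 11.06 and 9.98 in vitro and 10.88 and 10.58 in vivo, and a dim Hyou1 probe set 6.14 and 4.79, and 5.62 and 5.28. In these Canx, Hsp90b1 and Hyou1 probe sets the in vitro control was the lowest of the 4 arrays and the in vitro deleted array the highest.

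Of the 28 members with several probe sets above the cutoff, 24 had a wider range of differences in vitro than in vivo, as did 3127 of 4575 genes in all. The range exceeded 1 on the log2 scale for 5 of 28 members in vitro (17.9%, beside 17.8% of all genes) and for 0 in vivo (4.31% of all genes). In the ER stress arm alone it was 4 of 13 (30.8%), in the heat shock arm 1 of 7 and in the ATF4 arm 0 of 8. The 3' to 5' signal of Gapdh and Actb differed between the same 2 arrays, and the in vitro difference followed gene length across 10891 genes (Spearman rho = 0.259, against -0.0396 in vivo, with genes as the points on the same arrays). The part of 3' to 5' signal in these probe sets was not tested.

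**Figure D3:**
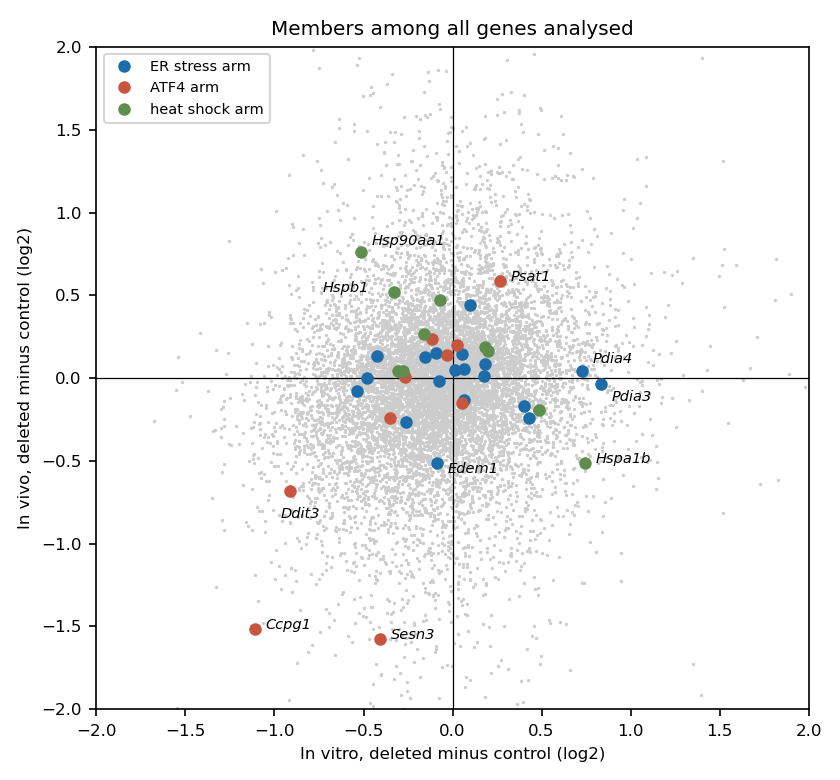
In vivo against in vitro difference of log2 values for the 39 genes (coloured by arm) over all genes analysed (grey), within 2 log2 units of 0 on each axis; 103 genes lie outside. Ccpg1, Sesn3 and Ddit3 lie at the lower left, and Hsp90aa1 and Hspa1b lie in opposite corners.

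In the heat shock arm the strongest contrast lay between the systems. Hspa1a and Hspa1b encode the stress-inducible Hsp70, are nearly identical, and can share signal on the arrays, so their values are uncertain as separate genes. Hspa1b read 11.03 and 10.29 in vitro and 7.85 and 8.36 in vivo (deleted, control), and Hspa1a 8.71 and 8.23 in vitro and 4.87 and 5.06 in vivo. Both in vitro arrays lay above both in vivo arrays for each. The difference between systems, fitted by limma with the deletion as a covariate, was -2.55 ± 0.35 for Hspa1b (SE; 5.85-fold lower in vivo, adjusted p = 0.040) and -3.51 ± 0.25 for Hspa1a (SE; 11.4-fold lower in vivo, adjusted p = 0.015). The in vivo values of Hspa1a lay under the level cutoff, so its fold is not exact. Neither call held with no level filter (limma, adjusted p = 0.080 and 0.065), where more genes are tested, and the Hspa1b call was also lost with the median of its probe sets (0.061) and with a pseudocount (0.055). Over all alternatives the adjusted p ran from 0.013 to 0.080 for Hspa1b and from 0.0094 to 0.065 for Hspa1a.

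Only 1 other member passed the test between systems, namely Ccpg1, which was 3.39-fold lower in vivo (-1.76 ± 0.22, SE; limma, adjusted p = 0.036, and 0.026 to 0.072 over the alternatives). Thus 3 of 39 members were higher in vitro, beside 2.77% of all genes, and 0 were higher in vivo (1.35%). Hspa1a and Hspa1b can share signal, so they may not be separate readings in this count. Hspa1a lay under the level cutoff in vivo, and Ccpg1 just under it on the deleted in vivo array, so their folds are not exact. Hsph1 (-0.90) and Dnajb1 (-0.59), partners of Hsp70, were also lower in vivo without passing, whereas Bag3, an Hsp70 cochaperone of autophagy, was at 0.85 (limma, adjusted p = 0.080, 0.17 and 0.094). With the 2 arrays of a system forming 1 pair, a system difference and any batch of arrays cannot be told apart.

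With the deletion, 6 of 10 heat shock genes were lower in vitro (6275 of 10916 genes in all) and 8 of 10 were higher in vivo (5065 of 10916), on the brightest probe set. By that reading 2 of 10 had the same sign in both systems, beside 55.3% of all genes. The in vitro direction rests on that choice, since the median of each gene's probe sets gave an arm median of 0.11 in vitro and 0.19 in vivo, both higher. Hsp90aa1, the inducible cytosolic Hsp90, read 11.20 and 11.72 in vitro and 11.51 and 10.74 in vivo (deleted, control), so the in vivo control was the lowest array and the in vitro control the highest. Its other bright probe sets differed by 0.85 and 0.39 in vitro and by 0.75 and 0.43 in vivo, so the in vitro sign rests on 1 probe set and the in vivo one does not. Hspb1, a small heat shock protein, read 10.13 and 10.46 in vitro and 10.72 and 10.20 in vivo, and its second probe set gave -0.41 and 0.51.

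The remaining heat shock genes showed smaller differences on the brightest probe set. Hspd1, the mitochondrial chaperonin Hsp60, differed by -0.07 and 0.47, and its partner Hspe1, transcribed from the other side of the same promoter, by -0.28 and 0.04. Hspa8, the constitutive Hsp70, differed by 0.20 and 0.16. Its other probe sets were at 0.10, -0.11 and -0.36 in vitro and at 0.10, 0.19 and 0.54 in vivo. Hsph1 differed by 0.18 and 0.19 (second probe set 0.70 and 0.29). Dnajb1 differed by -0.16 and 0.26 (second probe set 0.75 and 0.47) and Bag3 by -0.30 and 0.04. On the brightest probe set, those past 1.5-fold in this arm were Hspa1b in vitro (1.67-fold higher) and Hsp90aa1 in vivo (1.70-fold higher). That is 1 of 10 in each system, beside 5.10% and 8.02% of all genes.

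Wider lists of the same pathways held 1 gene past 2-fold. Of 20 further ER folding genes analysed, 0 differed by 2-fold in either system, with medians of 0.00 in vitro and -0.08 in vivo. Over all 10916 genes, 4638 were higher and 6275 lower in vitro, and 5065 higher and 5847 lower in vivo, against which the following counts are to be read. Of 12 further ER degradation genes, 9 were lower in vivo and the median was -0.23, with none past 1.5-fold there. Of 8 ER stress sensors and proteases and 5 genes of the eIF2 kinases and phosphatase none was 2-fold different, and Eif2ak3, which encodes Perk, and is in both lists, differed by 0.28 and -0.46. Of 28 further ATF4 targets, 21 were higher in vivo (median 0.14), against 14 in vitro (median 0.01). Ddit4, an mTORC1 inhibitor also induced by hypoxia, was the only one past 2-fold, at 10.73 and 9.46 in vivo (2.42-fold higher) and 8.86 and 8.87 in vitro. Of 23 further heat shock genes, 16 were higher in vivo (median 0.17) and 14 in vitro (median 0.03), none by 2-fold. The limma fit called none of the genes in these lists for a shared deletion effect, and marked none at an unadjusted p of 0.05.

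**Figure D4:**
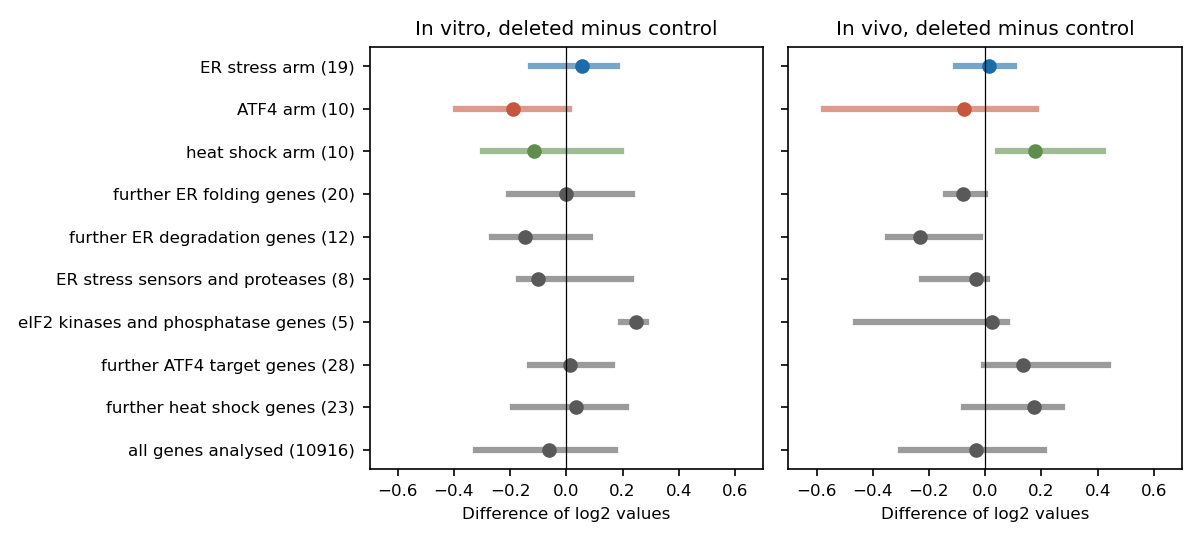
Median (point) and middle 50% (bar) of the difference of log2 values in each list, in vitro and in vivo, with the number of genes analysed in parentheses. All medians lie between -0.23 and 0.25, and the bars of most lists cross 0.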

How the data were processed

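The authors deposited log2 expression values per probe set for 4 arrays. The scale was read from the values, and the sources used here do not give the software or normalization. The columns were quantile normalized with limma (version 3.58.1, R 4.3.3). Of 45101 probe sets, 34945 had 1 gene symbol in the platform annotation, and 34741 of these were updated through RefSeq (GRCm38.p6). A gene was read from its brightest probe set, and genes whose mean reached the 40th percentile of gene means were analysed. Differences are log2 of the deleted minus the control array. limma (lmFit, eBayes, Benjamini-Hochberg over all genes) fitted deletion and system together. The fit was tested on simulated data with known differences. The planted deletion differences were larger than the shared difference of any member, so this check does not cover differences of the members' size.

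The members and lists were chosen with earlier results of these data known. Named members were those at least 1.5-fold different in either system plus Hspa5, Ddit3, Atf4, Hspa1a, Hspa1b and Hsf1; from wider lists, those at least 2-fold different. Other members, probe sets and genes were named after their values were seen. Protein sequences were not used here. With 1 array per group no p-value is given within a system, and the number of arrays limits the precision.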

Additional observations from a re-analysis of the deposited data

Results flagged for a closer look

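Members at least 1.5-fold different in 1 system had the opposite sign in the other in 3 cases, and the difference between the systems was not tested, since each rests on 1 pair of arrays. Pdia3 was at 0.84 in vitro and -0.04 in vivo, a value near 0 that turned positive with values as deposited (0.0028), loess (0.001) and the median of its probe sets (0.0954). Hspa1b was at 0.74 in vitro and -0.51 in vivo, with its 3 probe sets of 1 sign in each system. Hsp90aa1 was at -0.51 in vitro and 0.76 in vivo, but its in vitro value was 0.22 with the median of its probe sets.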

How the results depend on the processing

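The limma fit is paired, since its system term joins the 2 arrays of a pair, and the labels give no replicate numbers for another block. When a gene was read as the median of its probe sets, the in vitro medians were 0.054 over all members, 0.26 (ER stress arm), -0.069 (ATF4 arm) and 0.11 (heat shock arm), 2 members (Canx and Sel1l) were 2-fold higher and 0 were 2-fold lower in vitro, and 1 member differed between the systems. Without _x_at and _s_at probe sets, the ATF4 median was -0.0305, 1 member was 2-fold higher (Canx) and 0 lower in vitro, and 1 was 2-fold lower in vivo. Removal of the gene length trend gave 0.0132 for the heat shock arm in vitro. The filter at the 60th percentile leaves out Ccpg1, Hspa1a and Sdf2l1, so 2 of the 3 members called between the systems were not tested there, and gave 0 and 1 members 2-fold lower (in vitro, in vivo) and 1 between the systems, and no filter gave 0 between the systems. The shared deletion effect called 0 members and 0 genes under all 8 alternatives. No called value turned its sign. Signals near the cutoff limit Hspa1a and Ccpg1 in vivo.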

Other observations

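The chaperonin CCT, which folds actin and tubulin, was read through Cct2, Cct3, Cct4, Cct5 and Tcp1. All 5 genes were higher in the deleted in vivo array (0.18, 0.35, 0.24, 0.43 and 0.27 on the log2 scale), as were 5065 of 10916 genes in all. In the deleted culture 4 of 5 were lower (0.01, -0.20, -0.09, -0.25 and -0.10), as were 6275 of 10916. None differed by 1.5-fold, and the part of the keratinocyte and muscle transcripts in the in vivo values was not tested. Among Hsp90 cochaperones the values were mixed: Fkbp4 was at -0.79 in vitro and 0.58 in vivo, Ahsa1 at -0.53 and 0.42, Cdc37 at -0.18 and 0.17, Stip1 at 0.21 and 0.27, Chordc1 at 0.08 and 0.27, and St13 at 0.22 and -0.10. These genes were picked from their list after their values were seen.

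Also chosen after their values were seen, Mthfd2 was at 0.79 in vivo (-0.12 in vitro), Shmt2 at 0.78 (-0.02) and Psph at 0.67 (-0.35), while Psat1 of the same synthesis route as Psph was higher in both systems (0.58 and 0.26). Between the systems, the limma fit called Atf3 (in vivo minus in vitro -2.97 on the log2 scale, adjusted p = 0.015) and Cryab (-1.69, adjusted p = 0.047). In the other direction, limma called Cth (2.33, adjusted p = 0.024) and Slc7a3 (1.39, adjusted p = 0.048). Of all genes, 2.77% were called higher in vitro and 1.35% higher in vivo. Cryab and Slc7a3 lay close to the 0.05 threshold. The processing alternatives were not read for these genes, and with no level filter 0 members stayed called. Atf3 read 5.59 and 5.44 in vivo (deleted, control), near the cutoff of 5.28, so its size is uncertain. The part of array batch in these calls was not tested. Atf3 is an early stress factor, and Cth an enzyme of cysteine synthesis.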
